A study of Mus musculus with 6 samples.

Results

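Cap1, encoding a cyclase-associated protein that speeds actin turnover, was examined with 9 other genes of actin filaments: Actb and Actg1 (the cytoplasmic actins), Pfn1, Tmsb4x and Tmsb10 (monomer binding proteins), Cfl1 and Gsn (filament severing), Coro1a (coronin) and Myo6 (a motor that walks along filaments). These 10 genes were selected by name from the 18478 genes of the deposited count table, and all 10 were found and passed the filter on low counts. The selection was made with the difference between CB2 KO and WT libraries already known. Their values in that comparison, including the large difference of Cap1, are therefore a description and carry no test.

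Group 2 innate lymphoid cells (ILC2s), antigen receptor-free lymphocytes of tissues known for IL-5 and IL-13, were sorted from the lungs of BALB/c mice aged 6 weeks. There were 3 libraries labelled WT and 3 labelled CB2 KO, the latter from mice lacking cannabinoid receptor 2, a G protein-coupled receptor encoded by Cnr2. Mice of both groups had received 3 intranasal doses of 1 µg recombinant mouse IL-33, and the cells of both then spent 24 h in culture with 10 ng/mL of IL-2 and 10 ng/mL of IL-7. RNA was sequenced from an input of 10 ng. The labels name neither separate mice, the knockout allele nor the cells in which it acts, so the spread between replicates may be technical, and each library reflects cells stimulated both in the animal and in culture.

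As background, actin filaments grow by adding monomers at the barbed end and are taken apart towards the pointed end. Cofilin severs old filaments and loosens their monomers, CAP1 strips cofilin from those monomers and exchanges their nucleotide, and profilin carries them back to growing ends, while thymosins hold a reserve. In lymphocytes this cycle serves migration, cell contact and secretion.

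Library totals ranged from 17141698 to 21621008 estimated counts. Values below are CPM, counts per 1000000 on TMM-scaled library sizes, and means are given ± SD over 3 libraries. Cnr2, the targeted gene, was at 9.32, 17.4 and 15.8 CPM in WT replicates 1 to 3 and at 9.24, 1.604 and 3.84 CPM in the libraries labelled CB2 KO replicates 1 to 3. The library labelled CB2 KO replicate 1 was thus level with the lowest WT library. It also stood alone at one end of the first principal component, which held 37.6% of the variance (score 150.7 against -35.6 to -24.6 in the other 5 libraries), and of its genes with a mean of 10 to 100 counts 28.3% were at 0, against 12.2% to 21.8% in the others. WT replicate 1 stood alone on the second component (21.4% of the variance, score 106.8 against -57.7 to -2.5). Values of the 10 genes, of the genes near Cap1 and of all the pathway genes together are therefore also given with the library labelled CB2 KO replicate 1 left out. The 7 ILC2 and lymphocyte markers had values in both groups, at widely different levels. Gata3 was at 1057 ± 55.2 CPM in WT against 964 ± 28.2 CPM in CB2 KO. Il1rl1, which encodes a subunit of the receptor for IL-33, was at 964 ± 59.3 and 924 ± 23.2 CPM. Ptprc was at 669 ± 55.6 and 653 ± 20.9 CPM, and Icos at 552 ± 58.3 and 431 ± 32.4 CPM. Il7r was at 148 ± 12.9 and 123 ± 13.7 CPM, and Thy1 only at 21.7 ± 3.55 and 16.6 ± 0.88 CPM. Rora, at 292 ± 58.4 and 314 ± 9.68 CPM, alone had the higher mean in CB2 KO.

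Several of these genes have relatives so alike that reads are hard to assign, and the coding sequences show where. The first 90 coding bases of Actb and Actg1 are shown from the start codon (GENCODE M21, GRCm38), with capitals at the bases of Actb that differ from Actg1. Gm12715, on chromosome 4, is annotated as a processed pseudogene and not as coding. It is shown by the 90 bases with the fewest differences from those of Actg1:
Actb: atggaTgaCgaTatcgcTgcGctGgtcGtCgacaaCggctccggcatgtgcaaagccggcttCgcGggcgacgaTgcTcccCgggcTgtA
Actg1: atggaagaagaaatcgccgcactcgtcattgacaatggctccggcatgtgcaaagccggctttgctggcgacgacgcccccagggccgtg
Gm12715: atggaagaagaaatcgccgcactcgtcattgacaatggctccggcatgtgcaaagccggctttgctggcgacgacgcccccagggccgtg
Actb and Actg1 differed at 16 of these 90 bases and at 128 of 1128 coding bases in all (88.7% identity). Gm12715 differed from Actg1 at 0 of the 90. The whole coding sequences of the small monomer-binding thymosins, 135 bases each in their shortest complete annotated form, are shown with capitals at the bases that differ from Tmsb10:
Tmsb4x: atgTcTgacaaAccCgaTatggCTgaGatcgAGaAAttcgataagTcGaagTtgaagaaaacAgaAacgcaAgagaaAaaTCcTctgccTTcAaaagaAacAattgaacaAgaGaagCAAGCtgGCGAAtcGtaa
Tmsb10: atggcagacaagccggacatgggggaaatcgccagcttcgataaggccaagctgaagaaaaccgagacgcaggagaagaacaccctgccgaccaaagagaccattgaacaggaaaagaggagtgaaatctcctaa
Gm9844: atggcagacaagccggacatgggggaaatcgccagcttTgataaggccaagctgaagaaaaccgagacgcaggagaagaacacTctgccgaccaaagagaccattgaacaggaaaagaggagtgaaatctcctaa
Tmsb4x differed from Tmsb10 at 40 of 135 bases (70.4% identity), so these genes are easily told apart. Gm9844, on chromosome 7, differed from Tmsb10 at 2 bases. Cap1, Pfn1, Tmsb4x, Gsn, Coro1a and Myo6 had 0 relatives of at least 90% identity over at least 200 nt.

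Cap1 (chromosome 4, 122859047 to 122886056, minus strand, mm10) was lower in every WT library than in any library labelled CB2 KO. It measured 137, 129 and 145 CPM in WT replicates 1 to 3 and 886, 805 and 864 CPM in CB2 KO replicates 1 to 3. The groups lay far apart, and the values within a group were close together, with a coefficient of variation of 5.85% in WT and 4.90% in CB2 KO. Among all genes ordered by count, Cap1 stood at places 1661, 1826 and 1575 in the WT libraries and at 95, 109 and 98 in the CB2 KO libraries. The mean went from 137 ± 8.005 to 852 ± 41.7 CPM, which is 6.22-fold higher in CB2 KO (log2 difference 2.64, SE 0.08). With the library labelled CB2 KO replicate 1 left out, the log2 difference was 2.61, and leaving out each library in turn gave 2.59 to 2.68.

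**Figure D1:**
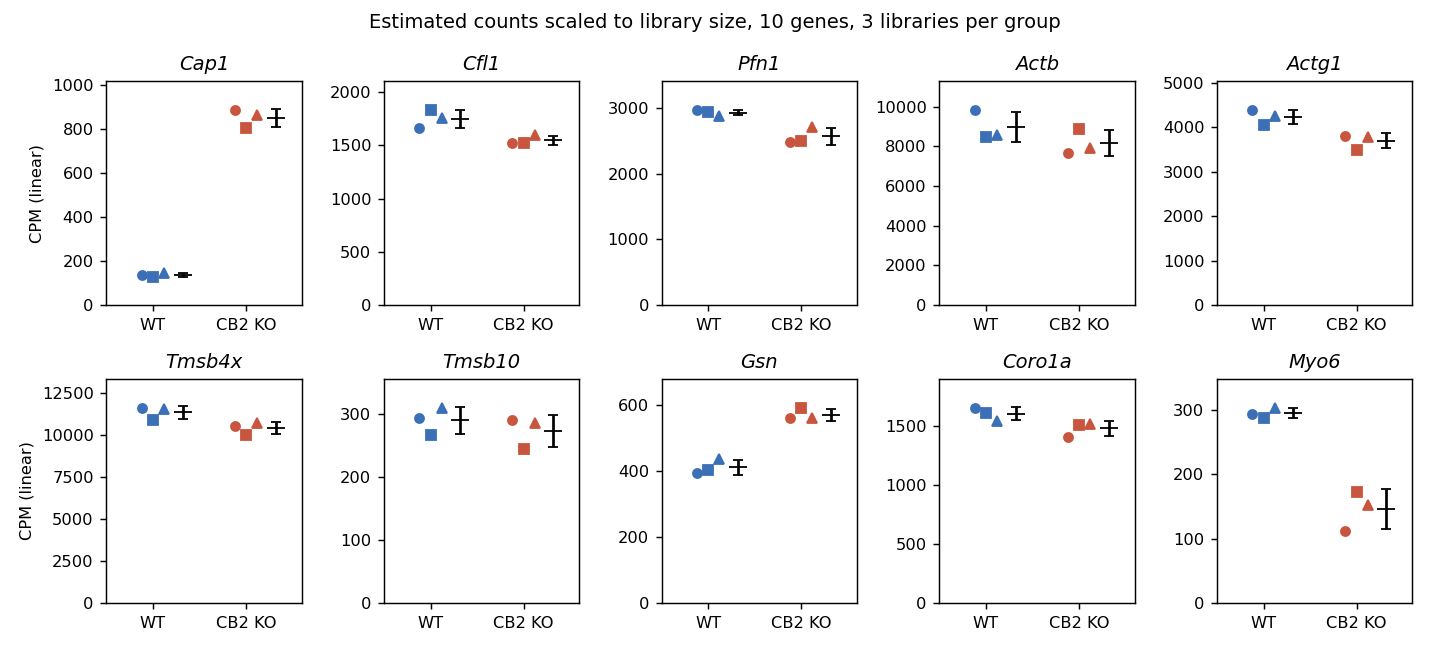
CPM (linear axes that start at 0, a different scale for each gene) of the 10 genes in WT and CB2 KO libraries. Circles, squares and triangles are replicates 1, 2 and 3, and black bars are mean ± SD of 3 libraries. Cap1 goes from 129 to 145 CPM in WT to 805 to 886 CPM in CB2 KO, Myo6 and Gsn show smaller gaps in opposite directions, and the other 7 genes show small gaps or overlap.

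The last 129 nt of the Cap1 gene overlap an exon of Ppt1, which encodes a lysosomal thioesterase and lies on the opposite strand (chromosome 4, 122836242 to 122859175). The sources used here do not state whether the counting used strand, so reads in that stretch cannot be told apart. Ppt1 is given as a check only: it measured 89.7, 103 and 78.6 CPM in WT against 138, 102 and 123 CPM in CB2 KO. These groups overlapped, with a log2 difference of 0.41 (SE 0.16), or 0.30 if the library labelled CB2 KO replicate 1 was left out. The counts of both genes summed were 227, 232 and 223 CPM in WT against 1024, 907 and 987 CPM in CB2 KO, a log2 difference of 2.10 (SE 0.07). Mean Ppt1 was 30.7 CPM higher in CB2 KO, and mean Cap1 was 715 CPM higher.

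Relatives of Cap1 at lower identity were also looked for. Cap2, the paralog best known from muscle, matched Cap1 at 67.5% over 1109 nt and was at 0 in 4 libraries, at 0.78 CPM in WT replicate 2 and at 2.93 CPM in CB2 KO replicate 2. It was too low to be tested. Gm4817 matched Cap1 at 86.1% over 1422 nt and measured 0.56, 0.39 and 0.51 CPM in WT against 3.38, 2.36 and 3.31 CPM in CB2 KO. Its groups were apart in the same direction as those of Cap1, at levels under 1% of it, and whether reads of Cap1 were assigned to it was not tested.

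The 250 bases before the Cap1 start site (RefSeq, GRCm38.p6, chr4:122886077-122886326, minus strand) are shown because Cap1 had the widest gap of the 10 genes. Capitals mark ATTGG, the letters CCAAT on the other strand, whose first base lies 66 bases upstream:
Cap1: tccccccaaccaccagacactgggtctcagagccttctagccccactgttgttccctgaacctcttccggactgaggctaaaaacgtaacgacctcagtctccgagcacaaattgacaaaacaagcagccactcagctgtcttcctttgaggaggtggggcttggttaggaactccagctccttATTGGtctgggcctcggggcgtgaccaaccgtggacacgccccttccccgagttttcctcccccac
CCAAT, searched on both strands, was found in 33.85% of 32851 RefSeq promoters of this length and in 6 of the 14 promoters of 9 of the genes (those of Gsn, Cap1, Myo6, Actg1 and Cfl1). Actb had no entry among these promoters and was not searched. TATAAA was found in 0 of the 14 and in 12.37% of all, and GGGCGG in 11 of the 14 and in 32.74% of all.

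Around Cap1, 8 other genes of the table lie at least partly within 500 kb, and 7 of them were tested. None of the 7 passed the adjusted threshold of 0.05 (edgeR's quasi-likelihood test, Benjamini-Hochberg over all genes). Mycl, a MYC family transcription factor whose start site lies 109.6 kb from that of Cap1, measured 12.5, 14.1 and 8.26 CPM in WT against 23.7, 22.6 and 22.7 CPM in CB2 KO. Mfsd2a, a lipid transporter 75.1 kb away, measured 21.3, 16.9 and 17.8 CPM in WT against 23.8, 33.3 and 22.2 CPM in CB2 KO. These 2 of the 7 tested genes did not overlap between groups, against 14.1% of all tested genes (24.1% with the library labelled CB2 KO replicate 1 left out). Their log2 differences were 0.97 (SE 0.28) and 0.51 (SE 0.27), or 0.94 and 0.59 with that library left out. Trit1, Ppie, Pabpc4 and Macf1 overlapped, with log2 differences of 0.20, -0.17, 0.17 and -0.01 (0.26, -0.19, 0.01 and 0.24 with that library left out), and Bmp8b was too low to be tested. Cnr2 is on the same chromosome, 13.0 Mb from the end of Cap1, and the part of this linkage in the Cap1 values was not tested.

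**Figure D2:**
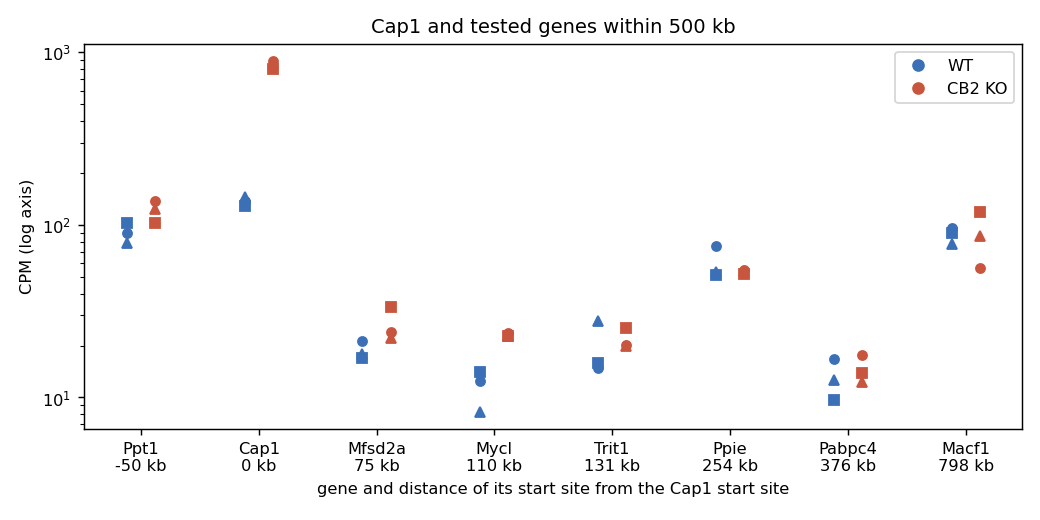
CPM (log axis) of Cap1 and the tested genes lying at least partly within 500 kb, ordered by the distance of each start site from that of Cap1. Blue symbols are WT and red symbols CB2 KO libraries, with circles, squares and triangles for replicates 1, 2 and 3. Cap1 shows the widest gap, Mfsd2a and Mycl show narrow gaps, and the other 5 genes overlap.

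Myo6 (chromosome 9, 80165031 to 80311729, plus strand) encodes myosin VI, the motor that moves towards the pointed end and works in vesicle traffic. It measured 294, 287 and 303 CPM in WT against 111, 172 and 153 CPM in CB2 KO. All 3 CB2 KO libraries were below all 3 WT libraries, and the library labelled CB2 KO replicate 1 was the lowest. The means were 295 ± 8.04 and 145 ± 31.1 CPM, 2.03-fold lower in CB2 KO (log2 difference -1.02, SE 0.15). The coefficient of variation was 2.73% in WT and 21.4% in CB2 KO. With the library labelled CB2 KO replicate 1 left out, the log2 difference was -0.85, and leaving out each library in turn gave -1.17 to -0.85.

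Gsn (chromosome 2, 35256380 to 35307892, plus strand) encodes gelsolin, which severs filaments and caps their barbed ends in the presence of calcium. It measured 396, 403 and 438 CPM in WT against 560.4, 592 and 563 CPM in CB2 KO. Every CB2 KO library lay above every WT library. The means were 412 ± 22.7 and 572 ± 17.8 CPM, 1.39-fold higher in CB2 KO (log2 difference 0.47, SE 0.06; 0.49 if the library labelled CB2 KO replicate 1 was left out).

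The actins were among the most abundant transcripts. Actb (chromosome 5, 142903115 to 142906754, minus strand) measured 9818, 8460.1 and 8598 CPM in WT against 7682, 8896 and 7912 CPM in CB2 KO. The groups overlapped, because CB2 KO replicate 2 lay above WT replicates 2 and 3, and the log2 difference was -0.13 (SE 0.07). It was -0.07 without WT replicate 1 and -0.20 without CB2 KO replicate 2. Actg1 (chromosome 11, 120345690 to 120348542, minus strand) measured 4384, 4059.8 and 4258 CPM in WT against 3798, 3500.1 and 3788 CPM in CB2 KO. Its groups did not overlap, and the log2 difference was -0.20 (SE 0.05). Actg1 made up 30.9%, 32.4% and 33.1% of the summed CPM of both actins in WT and 33.1%, 28.2% and 32.4% in CB2 KO, so their balance overlapped between groups.

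The monomer-binding genes were also abundant. Tmsb4x (chromosome X, 167207093 to 167209315, minus strand), which holds actin monomers in reserve, had more counts than any other gene in all 6 libraries. It measured 11613, 10871 and 11547 CPM in WT against 10566, 9996 and 10696 CPM in CB2 KO, a small gap without overlap (log2 difference -0.12, SE 0.04). Tmsb10 (chromosome 6, 72957347 to 72958748, minus strand) measured 293, 266 and 309 CPM in WT against 290.2, 244 and 285 CPM in CB2 KO, and its groups overlapped (log2 difference -0.08, SE 0.10). Leaving out CB2 KO replicate 2 took it to -0.01, WT replicate 3 to -0.04, WT replicate 2 to -0.14 and the library labelled CB2 KO replicate 1 to -0.13. The ratio of Tmsb4x to Tmsb10 CPM was 37.3 to 40.9 in WT and 36.4 to 41.0 in CB2 KO. Pfn1 (chromosome 11, 70651850 to 70654644, minus strand), the profilin that hands monomers to growing ends, measured 2961, 2939 and 2880.2 CPM in WT against 2481, 2498 and 2710.1 CPM in CB2 KO. All CB2 KO libraries were below WT (log2 difference -0.19, SE 0.04).

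Cfl1 (chromosome 19, 5490455 to 5495201, plus strand), the main non-muscle cofilin and the partner from which CAP1 frees monomers, measured 1661, 1831 and 1761 CPM in WT against 1523, 1520.0 and 1599.7 CPM in CB2 KO. Coro1a (chromosome 7, 126699773 to 126707787, minus strand), the coronin of blood cells, measured 1652, 1612 and 1545 CPM in WT against 1409, 1508 and 1519 CPM in CB2 KO. Neither gene overlapped between groups, and both were lower in CB2 KO. Their log2 differences were -0.18 (SE 0.05) and -0.12 (SE 0.05). Cfl1 shares 468 nt of exon with Snx32 and Coro1a shares 26 nt with Bola2, both on the opposite strand. Snx32 measured 5.54 to 30.6 CPM and Bola2 59.9 to 83.5 CPM over the 6 libraries, each with overlapping groups.

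**Figure D3:**
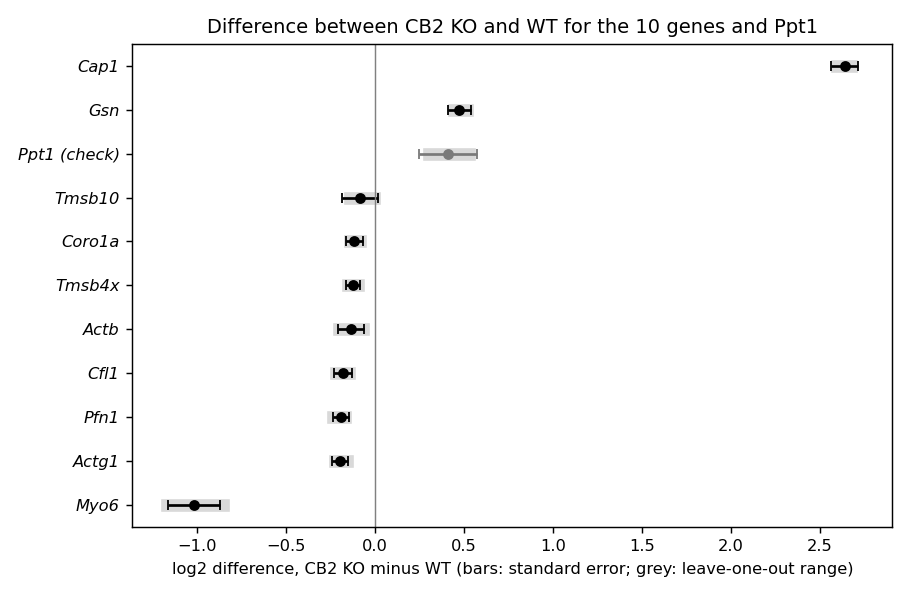
Log2 difference (CB2 KO minus WT) of the 10 genes and, in grey, of Ppt1 as a check, with bars of 1 standard error and grey bands for the range when each library is left out in turn. Cap1 and Gsn lie right of 0, Myo6 lies left of it, and the remaining 7 genes lie between -0.20 and -0.08.

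For the 7 genes other than Cap1, Gsn and Myo6, the log2 differences ran from -0.22 to -0.08 once the library labelled CB2 KO replicate 1 was left out.

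Copies were then summed with the gene each matches over the greatest length, and the directions stayed as they were. This assignment was chosen after the data were seen, and it leaves out Snx32 and Lrrc58, protein-coding genes that overlap Cfl1 and span the Actb copy Gm15725. Copies so assigned held 6.86% to 7.17% of the summed CPM for Actb, 27.7% to 29.3% for Actg1, 14.2% to 14.9% for Cfl1 and 27.7% to 31.0% for Tmsb10. Gm12715, which matches Actg1 at 99.6% over 1128 nt and Actb at 90.1% over 243 nt, measured 1262 ± 17.6 CPM in WT against 1077 ± 52.5 CPM in CB2 KO. Gm8399 (a copy of Actg1), Gm15725 (of Actb, at 91.8%), Gm6180 (of Cfl1) and Gm9844 (of Tmsb10) measured 439.7 ± 15.9, 627 ± 51.5, 296 ± 10.6 and 121 ± 9.15 CPM in WT. In CB2 KO they were at 386 ± 9.82, 566 ± 35.4, 262 ± 8.73 and 112 ± 11.3 CPM, each with a lower mean, as had the genes they copy. The counting divided ambiguous reads between genes, so values of a copy and of the gene it copies are not independent. Summed with their copies, the log2 difference was -0.13 (SE 0.07) for Actb, -0.20 (SE 0.04) for Actg1, -0.18 (SE 0.05) for Cfl1 and -0.09 (SE 0.09) for Tmsb10. With the library labelled CB2 KO replicate 1 left out, the sums gave -0.09, -0.21, -0.16 and -0.14. With every match of at least 90% counted, so that Gm12715 enters the sums of both actins and Lrrc58 and Snx32 enter too, Actb was at -0.15 (SE 0.06) and Cfl1 at -0.17 (SE 0.05). Of the remaining matches with a mean of at least 1 CPM, Lrrc58 was at 94.5 ± 11.9 and 80.2 ± 15.7 CPM, Gm4750 at 34.9 ± 1.82 and 32.3 ± 4.04 CPM, Gm17087 at 9.93 to 12.01 and 9.37 to 12.9 CPM, and Snx32 at 8.40 ± 2.71 and 15.6 ± 13.2 CPM (log2 difference 0.96, or 0.03 with the library labelled CB2 KO replicate 1 left out).

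Levels of different genes can be compared only per length, here as CPM per kb of annotated exon. In WT the order was Tmsb4x (8274), Actb (3344), Actg1 (1593), Pfn1 (1217), Cfl1 (616), Coro1a (576), Tmsb10 (227), Gsn (131), Cap1 (39.2 ± 2.29) and Myo6 (24.4 ± 0.67). Only Cfl1 and Coro1a, neighbours in that order, overlapped over the libraries, in both groups. In CB2 KO, Cap1 stood at 244 ± 11.9 CPM per kb, between Coro1a (531 ± 21.7) and Tmsb10 (214 ± 19.9), and had moved from place 9 to place 7. These levels leave out the copies, and Gm9844 held 27.7% to 31.0% of the CPM summed with Tmsb10. Whether Cap1 stands above Tmsb10 in CB2 KO therefore depends on how those reads are assigned. Copies held 14.2% to 14.9% of the CPM summed with Cfl1, so its overlap with Coro1a depends on that assignment too. Cfl1, the cofilin partner of Cap1, was at 616 ± 30.0 CPM per kb in WT and 544 ± 15.9 in CB2 KO. The 10 genes together held 3.05% to 3.30% of all counts in WT and 2.97% to 3.02% in CB2 KO.

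In the fit over all 14084 tested genes, edgeR's adjusted threshold of 0.05 was passed by 1 of the 10 genes, Cap1, and by 0.107% of all tested genes. DESeq2 called 6 of the 10 (Cap1, Cfl1, Pfn1, Actg1, Gsn and Myo6), against 2.58% of all. Groups did not overlap for 8 of the 10, 2 higher and 6 lower in CB2 KO, against 14.1% of all tested genes. The same 8 did not overlap with the library labelled CB2 KO replicate 1 left out, against 24.1% of all. An unadjusted p under 0.05 from edgeR was reached by 8 of the 10, against 8.6% of all. Because the genes were selected on this comparison, nothing is read from these counts. Their median log2 difference was -0.13, that of all tested genes was -0.00, and that of the 79 tested genes with a mean of at least 1000 CPM was -0.09. Of those 79 abundant genes 56 had a negative value and 42 did not overlap between groups.

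Other genes of actin dynamics were taken from 16 lists by function, 144 genes in all, of which 134 were in the table and 123 were tested. By edgeR's quasi-likelihood test, Benjamini-Hochberg adjusted over all genes, 0 of the 123 rose and 0 fell. An unadjusted p under 0.05 was reached by 12 (9.76%, against 8.6% of all tested genes), of which 3 were higher and 9 lower in CB2 KO. Over all tested genes, 610 with such a p were higher and 601 lower. DESeq2 called 1, Arpc2, as lower. The median log2 difference was -0.08, with 46 positive and 77 negative values. With the library labelled CB2 KO replicate 1 left out, these were -0.06, 52 and 71. Over all tested genes and all 6 libraries, 7037 values were positive and 7047 negative. Groups did not overlap for 21 of the 123 (17.1%, against 14.1% of all tested genes), and for 33 with that library left out (26.8%, against 24.1%). The shares without overlap and with an unadjusted edgeR p under 0.05 lie near those of all genes. The share of negative values was above that of all tested genes, as it was for the 79 genes with a mean of at least 1000 CPM (56 negative). Most of the 123 lie below that level.

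Of the Arp2/3 complex, which starts branched filaments, all 9 listed subunits were tested and 8 had negative values, with a median of -0.17. Arpc2, a core subunit, measured 827, 821 and 819 CPM in WT against 694, 698 and 736 CPM in CB2 KO (log2 difference -0.21, SE 0.05; -0.20 with the library labelled CB2 KO replicate 1 left out). It did not overlap between groups, and neither did 4 others of the complex, all lower in CB2 KO, beside 14.1% of all tested genes and 42 of the 79 with a mean of at least 1000 CPM. All 9 subunits had means under 1000 CPM, so those 79 are a more abundant set. Arpc5, another subunit, was at 889 ± 48.9 and 840.3 ± 10.6 CPM and overlapped. Of 14 tested regulators of the complex, listed as activators but including the inhibitor Arpin, 11 had negative values (median -0.10). Arpin was 1 of the 11. The WAVE complex genes Nckap1l and Cyfip2 were at 225 ± 17.6 and 220.4 ± 14.8 CPM and at 309 ± 58.4 and 313 ± 34.2 CPM.

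Genes that work beside cofilin and CAP1 had values of both signs. Of 11 tested genes for cofilin cofactors and monomer binding, 7 had positive and 4 negative values (median 0.04). Wdr1, the cofilin cofactor AIP1, was at 1232 ± 103 CPM in WT against 1252 ± 99.3 CPM in CB2 KO, and Cotl1, a cofilin-like protein, at 218 ± 41.4 and 184 ± 36.7 CPM. Among 8 kinases and phosphatases of cofilin, with a median of 0.33, Limk2 was at 57.5 ± 10.7 and 46.6 ± 24.3 CPM and Ssh2 at 52.8 ± 22.8 and 65.1 ± 14.7 CPM. Of 6 other gelsolin family genes, Capg, a barbed end capper, was at 1117 ± 35.0 and 1034 ± 48.3 CPM, and Flii at 203 ± 5.32 and 197 ± 12.7 CPM. Capping and pointed-end genes had negative values for 6 of 7 (Capza2 729 ± 31.5 and 671 ± 16.0 CPM, Capzb 836 ± 77.7 and 813 ± 12.3 CPM). Of 5 further coronins 4 were negative, with Coro2a at 457 ± 54.0 and 392 ± 17.3 CPM and Coro1c, the positive member, at 395 ± 39.2 and 435 ± 50.3 CPM. With the library labelled CB2 KO replicate 1 left out, the medians were 0.18 for the cofactors and monomer binding genes, 0.21 for the kinases and phosphatases and -0.04 for the capping and pointed-end genes.

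Genes that bind filaments likewise had values on both sides of 0. Of 16 crosslinkers and membrane linkers 9 had positive and 7 negative values. The bundler Lcp1 was at 2288 ± 86.0 CPM in WT against 2067 ± 184 CPM in CB2 KO, and moesin, Msn, which ties filaments to the membrane, at 1616 ± 124 and 1405 ± 23.5 CPM. All 3 tested tropomyosins had negative values, among them Tpm3 (849 ± 49.6 and 761 ± 45.5 CPM) and Tpm4 (871 ± 21.3 and 797 ± 43.0 CPM). Formins, which nucleate unbranched filaments, had 5 positive and 3 negative values (Fmnl1 197 ± 7.17 and 175 ± 23.9 CPM, Fmnl3 56.0 ± 10.8 and 66.1 ± 22.5 CPM).

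Myosins other than Myo6 had values of both signs. Of 15 tested, 6 had positive and 9 negative values (median -0.04; 9 positive and 6 negative, median 0.03, with the library labelled CB2 KO replicate 1 left out), with the light chain Myl12a at 578 ± 33.6 and 542 ± 13.4 CPM and the motor Myo1g at 580.3 ± 19.0 and 564 ± 57.1 CPM. The cargo adaptors of myosin VI had 3 positive and 3 negative values (median 0.03, or -0.23 with that library left out). Tax1bp1, an autophagy adaptor, measured 458, 528 and 480.0 CPM in WT against 529, 577 and 599 CPM in CB2 KO. Its groups were just apart, with higher values in CB2 KO (log2 difference 0.22, SE 0.08; 0.27 with the library labelled CB2 KO replicate 1 left out), the opposite sign to Myo6. Gipc1, an endocytic adaptor, was at 100.5 ± 5.59 and 80.3 ± 13.3 CPM, and its groups overlapped.

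Transcription of many actin genes answers to SRF and its partner MRTF, which sense free monomers. Srf was at 43.5 ± 4.93 CPM in WT against 43.2 ± 17.5 CPM in CB2 KO, and Mrtfa at 57.8 ± 12.4 and 41.3 ± 24.3 CPM, both with overlapping groups. Of other actins, the actin-related Actl6a was at 179 ± 28.0 and 174 ± 6.61 CPM. The smooth muscle actin Acta2 was at 0 in every library except CB2 KO replicate 3, where it was at 1.34 CPM, and was too low to be tested.

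**Figure D4:**
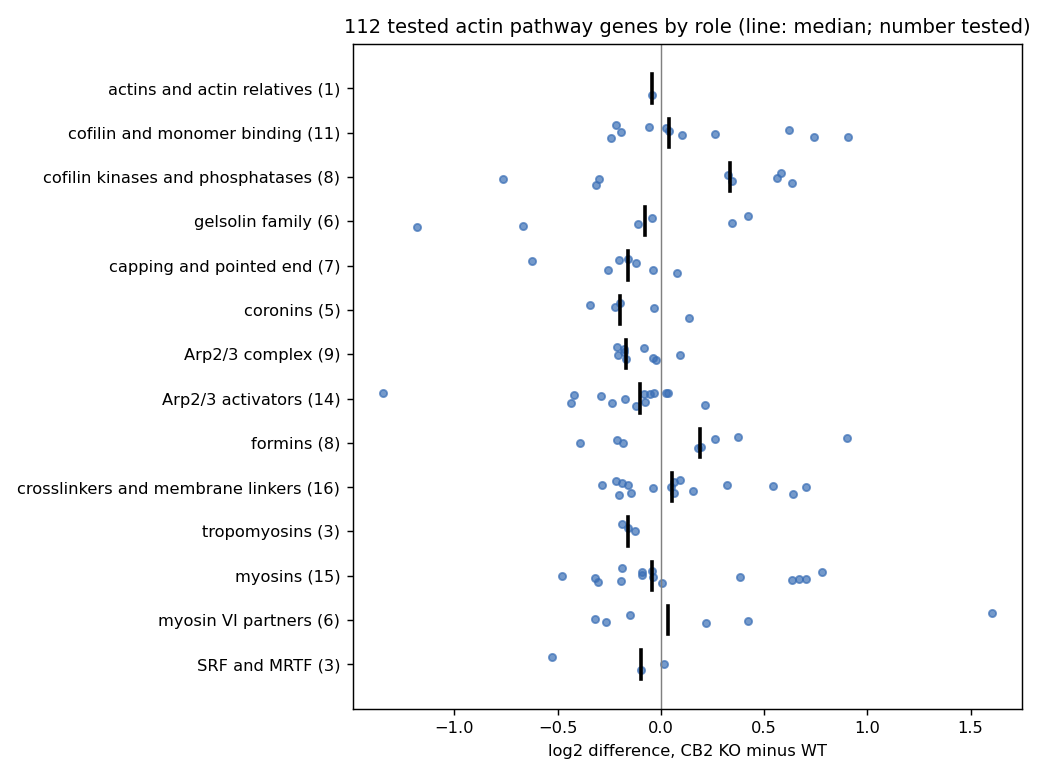
Log2 difference (CB2 KO minus WT) of 112 tested genes of actin dynamics outside the 10, in rows by role with the number tested. Each point is 1 gene and each black line the median of its row. The row of Arp2/3 activators includes Arpin, an inhibitor of the complex. Arp2/3 complex points lie between -0.21 and 0.09, whereas cofilin kinases and phosphatases and the myosins spread widely on both sides of 0. The wide rows include low genes with large standard errors, such as Ssh3 (mean 1.03 CPM, SE 1.12) and Myo7a (6.65 CPM, SE 0.96). Arpc2, in the narrow row, had a mean of 766 CPM and an SE of 0.05.

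The letters bound by SRF, the CArG box (CC, then 6 bases that are A or T, then GG), were found in 1.47% of the RefSeq promoters and in 1 of the 14 promoters of these genes, that of Actg1. Actb had no entry among the promoters used, so it was not searched for the box. The 60 bases around it (RefSeq, GRCm38.p6, chr11:120348551-120348610, minus strand) are shown with the box in capitals, its first base 90 upstream of the start site:
Actg1: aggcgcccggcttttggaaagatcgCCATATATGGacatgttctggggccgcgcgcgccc
The match is a description of the letters alone.

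Genes with the pattern most like Cap1 were found by Pearson's r of log2 CPM over the 6 libraries, among 9241 tested genes with a mean of at least 10 CPM. These were Gm4800 (r = 0.995), Gm49980 (0.993), Gm4864 (0.989), Ddt (0.988) and Ndufs5-ps (0.988). Gm49980 was at 4.82 ± 0.52 and 30.8 ± 1.602 CPM in WT and CB2 KO and Gm4864 at 4.17 ± 0.88 and 36.0 ± 1.63 CPM. Ddt, a relative of the cytokine MIF, was at 38.7 ± 0.89 and 54.7 ± 1.76 CPM. The most like Myo6 were Pphln1 (0.993), Gm11223 (0.988), Stmn1 (0.979), Cnot6 (0.979) and Tle3 (0.978). Stmn1, a tubulin-binding protein, was at 603 ± 37.0 and 334 ± 34.4 CPM, and Pphln1 at 96.5 ± 4.65 and 59.1 ± 8.50 CPM. The points of each correlation fall into the 2 groups, so a high r mainly orders genes by how cleanly the groups part. These ranks were made only with all 6 libraries.

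In bulk RNA, fewer cells of a type and less RNA per cell cannot be told apart. Markers of macrophages and monocytes (4 of 6 in the table) summed to 12.1 to 59.2 CPM in WT and 146 to 169 CPM in CB2 KO, led by Chil3 at 18.9 ± 25.1 and 128 ± 18.4 CPM. Mast cell and basophil markers (6 of 6) summed to 25.9 to 49.4 CPM and 54.1 to 117 CPM, T cell markers (3 of 5) to 0.24 to 1.58 and 3.49 to 4.13 CPM, and platelet markers (3 of 4) to 0 to 0.57 and 0.85 to 4.62 CPM. These 4 sums were higher in all CB2 KO libraries than in any WT library, as Cap1 and Gsn were, and their part in the differences of Cap1, Gsn and Myo6 was not tested. Of the single markers in these 4 sums, Lyz2, Chil3, Mcpt8, Tpsb2 and Fcer1a did not overlap between groups. Of all tested genes, 14.1% did not overlap. Fcer1a was low, at 0, 2.93 and 1.53 CPM in WT against 5.61, 3.35 and 5.58 CPM in CB2 KO. Csf1r, Cd68, Cpa3, Tpsab1, Cma1 and every T cell and platelet marker with values overlapped. Sums for B cells (2 of 4; 10.9 to 17.3 and 12.8 to 14.9 CPM), epithelium (5 of 5; 31.0 to 129.8 and 25.8 to 39.7 CPM), endothelium (1 of 4; 19.8 to 27.5 and 7.75 to 26.0 CPM), smooth muscle (4 of 6; 0.75 to 2.20 and 0 to 1.67 CPM) and red cells (3 of 4; 10.3 to 14.3 and 7.35 to 15.6 CPM) overlapped. Among defining markers, Cd79a was at 0 in all CB2 KO libraries, and Myh11, Des and Sftpc were each at 0 in 5 of 6 libraries. Of the ILC2 and lymphocyte markers (7 of 7), the sum was 3586 to 3823 CPM in WT and 3376 to 3470 CPM in CB2 KO, lower in all CB2 KO libraries. Gata3, Il7r, Thy1 and Icos were each lower in CB2 KO without overlap, whereas Il1rl1, Ptprc and Rora overlapped. Of the 5 fibroblast markers, 0 had a value among the genes used here, and 0 of the tested markers passed the adjusted threshold.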

How the data were processed

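The authors deposited an estimated count per gene and library, which per the file headers comes from an expectation-maximization step in Partek that divides ambiguous reads between genes. The submitters' processing notes also name CASAVA 1.8.2, STAR 3.5.3 and mm10. They deposited a normalized signal too, which equals the count plus 1 divided by a factor that sets the 75th percentile to 44.6 in each library, and this was used only as an alternative. Library totals ranged from 17141698 to 21621008, at which 3 counts are 0.139 to 0.175 CPM, and such limits cover counting error only.

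Groups and replicate numbers come from the sample titles. Estimated counts were rounded and fitted with edgeR 4.0.16 (R 4.3.3): TMM, filterByExpr (14084 genes kept, 4394 removed), glmQLFit (legacy=FALSE, robust=TRUE) then glmQLFTest, Benjamini-Hochberg at 0.05. Standard errors are the log2 difference divided by the root of F. The workflow was tested on simulated data. DESeq2 1.42.0, limma 3.58.1, other scalings, filters, a replicate block and leaving out each library were tried as alternatives. Copies were found with BLAST 2.17.0 among GENCODE M21 transcripts (at least 90% over 200 nt), and 17975 genes matched that annotation. The genes, the lists and the tests were chosen with earlier results of these data known. Named are the 10 genes, Ppt1, Cnr2 and Cap2, the 2 most abundant genes of each list, any past the threshold, the 5 most alike to Cap1 and Myo6, those within 500 kb of Cap1 and copies with a mean of at least 1 CPM. Markers, overlapping genes and Gm4817 are named as checks, and Arpin as the inhibitor within its list. The members of 1 list are counted in the totals and not reported here by name.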

Additional observations from a re-analysis of the deposited data

How the results depend on the processing

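The log2 difference of Cap1 was 2.64 and stayed between 2.59 and 2.68 under the 16 alternatives that kept its own counts; with Ppt1 counts added it was 2.10. Values of the other 9 genes and Ppt1, 160 in all, stayed within the spread between replicates, and 0 of 176 values changed sign. The number of genes past the adjusted threshold, 15 in all, became 35 with a mean count of at least 100 (Cap1, Gsn and Myo6 of the 10), 363 by DESeq2 and 28 on the authors' normalized signal, and 3 to 8 when a library was left out. Cap1 was among them each time, which its selection on this comparison makes no independent support. Of the actin pathway genes 0 were called under any setting other than DESeq2, which called 1. Summing Cap1 with genes that share its sequence was planned and not run, because 0 genes reached 90% identity over 200 nt (Gm4817 reached 86.1%). Same-numbered replicates of the groups had correlations of their deviations of 0.074, 0.031 and 0.02. The labels do not say what same-numbered libraries share, and the main fit left the numbers out. With the replicate block 3 genes were called, against 15 without it, and the Cap1 difference was 2.64. The cause of these shifts was not tested. At these depths Cap2, Bmp8b and Acta2 were too low to be tested.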
